A study of Homo sapiens with 2 samples.

Results

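Core components of the spliceosome were examined for C-to-U edits in HEK293T cells, a human embryonic kidney line, after in situ editing directed by RBFOX2. Each isoform locus was assigned to the protein-coding gene with which it shared most exonic bases on the same strand. Members were the genes whose symbols start with SF3A, SF3B, PRPF, SNRNP, SNRP or U2AF, or with LSM and a digit. Of 57 such symbols in GENCODE 44, 54 had an isoform locus and 53 had a listed edit site, out of 9193 protein-coding genes with a listed site. LSM11 had a locus and no site. SNRPN, SF3A2 and SNRPB had no locus of their own. The 53 genes held 841 isoforms, and 52 were listed in both libraries.

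In both samples, methanol-fixed cells were incubated with purified APOBEC1, an enzyme that deaminates cytidine, joined to a nanobody against rabbit IgG. The RBFOX2 sample first received a rabbit antibody against RBFOX2. The enzyme-only sample received no antibody and measured background editing. Full-length cDNA was sequenced by PacBio. Each group had 1 library (2 in all), so every difference is between these libraries and has no replicate check. Intervals given in parentheses are 95% intervals by the exact Clopper-Pearson method, which takes in the error of counting and nothing else. The labels give the line as HEK293XT in a field and HEK293T in the titles. All 6 genes of a list for this line (VIM, KRT8, KRT18, NEFM, NEFL and RBFOX2) were listed in at least 1 table, but VIM was listed only in the RBFOX2 library and KRT8 only in the enzyme-only library. Of 9 genes of differentiated kidney, 1 was listed, LRP2, with 8 and 12 reads.

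The spliceosome removes introns. The U1 particle recognizes the 5′ splice site and the U2 particle the branch point, where the U2AF proteins help to define the 3′ splice site, and the U4/U6 and U5 particles then join as a tri-snRNP before activation and catalysis. Most of the particles are built on a ring of Sm proteins, and U6 carries a ring of LSM proteins instead. RBFOX2 is a splicing regulator that binds UGCAUG in introns and exons of its target RNAs. Here the transcripts of the spliceosome genes, not the proteins, were measured, and the comparison asked how editing of these transcripts differed with and without the RBFOX2 antibody.

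The SF3B6 sequence is shown first because it had the most converted reads near UGCAUG. The sequences come from hg38 and are written 5′ to 3′ on the strand of the gene, as DNA, with the motif (TGCATG) and each cytosine listed as edited in the RBFOX2 library in capitals. SF3B6 on the minus strand is shown from the motif at chr2:24068364-24068393, with 5 edited cytosines after it, and on its 5′ side at chr2:24068424-24068453, with 4. SNRPD3 (chr22:24557693-24557722, plus strand) is shown because its edited cytosine lay directly 5′ of the motif.
SF3B6, motif and 3′ side: TGCATGtgatCaCCtatCgggattCaatgt
SF3B6, 5′ side: caCaCctgaaaCtagaggaaCagcttatgt
SNRPD3: attaaagtaCTGCATGaggccgagggccac

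The 3 positions with the most converted reads of all members have no UGCAUG in this window and are shown for comparison, with the edited cytosine in capitals. They lay in the 3′UTR of LSM4 (chr19:18307258-18307287, minus strand), in coding sequence of U2AF1 (chr21:43093091-43093120, minus strand) and in the 5′UTR of SNRNP70 (chr19:49085475-49085504, plus strand).
LSM4: cggttagaaatgttaCttggtgttttttgg
U2AF1: aagatctgggcgattCtgagccatgccatt
SNRNP70: tggctgagcagcggcCtggtgcgctcgctt

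Reads of the member genes summed to 28547 in the RBFOX2 library, against 25938 in the enzyme-only library, which was 1.17% and 1.16% of the reads of all genes with a site. A member had a median of 349 reads (range 10 to 3836) in the RBFOX2 library, against 323.5 (9 to 3015) in the enzyme-only library. The median ratio of reads was 1.05, from 0.714 in LSM8 to 1.46 in PRPF38A, against 1.11 over 7343 other genes. A site is a distinct edited position, and its edit fraction is the number of converted reads over the reads of the gene. The tables hold no site with a fraction of 0.2% or less, so a gene of 500 reads or more shows no site with a single converted read. Sites listed in both libraries, 98 in 32 members, are called shared and were left out of the comparisons. Of these, 42 had the higher fraction in the RBFOX2 library, against 56 in the enzyme-only library. Many had equal converted reads in both, as did all 6 of LSM10 at 314 and 256 reads. At such sites the order was set by the reads of the gene, so this count does not compare editing.

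The members held 769 unshared sites in the RBFOX2 library, against 587 in the enzyme-only library, a ratio of 1.31 that compares with 1.21 over all genes. More sites were listed in the RBFOX2 library for 30 members and fewer for 17, and 6 had equal numbers. Other genes were similar. With fewer than 500 reads in both libraries, 52.9% of members and 57.0% of other genes had more RBFOX2 sites. With at least 500 reads in both, 64.7% and 63.2% did. Under a common read minimum, where the stricter of the 2 libraries' limits was applied to both, the members held 769 and 547 sites. The ratio differed with depth. In the 34 members with fewer than 500 reads in both libraries, 595 sites stood against 481, a ratio of 1.24 (1.10 to 1.40) that compares with 1.25 in other genes of that depth. In the 17 members with at least 500 reads in both, 171 sites stood against 66, a ratio of 2.59 (1.94 to 3.50). Other genes of that depth, 766 in all, had a ratio of 1.67 (1.61 to 1.73). Without SF3B6 the members of that depth had 141 sites against 64, a ratio of 2.20 (1.63 to 3.01), an interval that includes the value of the other genes. Reads of these 17 members had a ratio of 1.12, and those of the other genes 1.04.

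**Figure D1:**
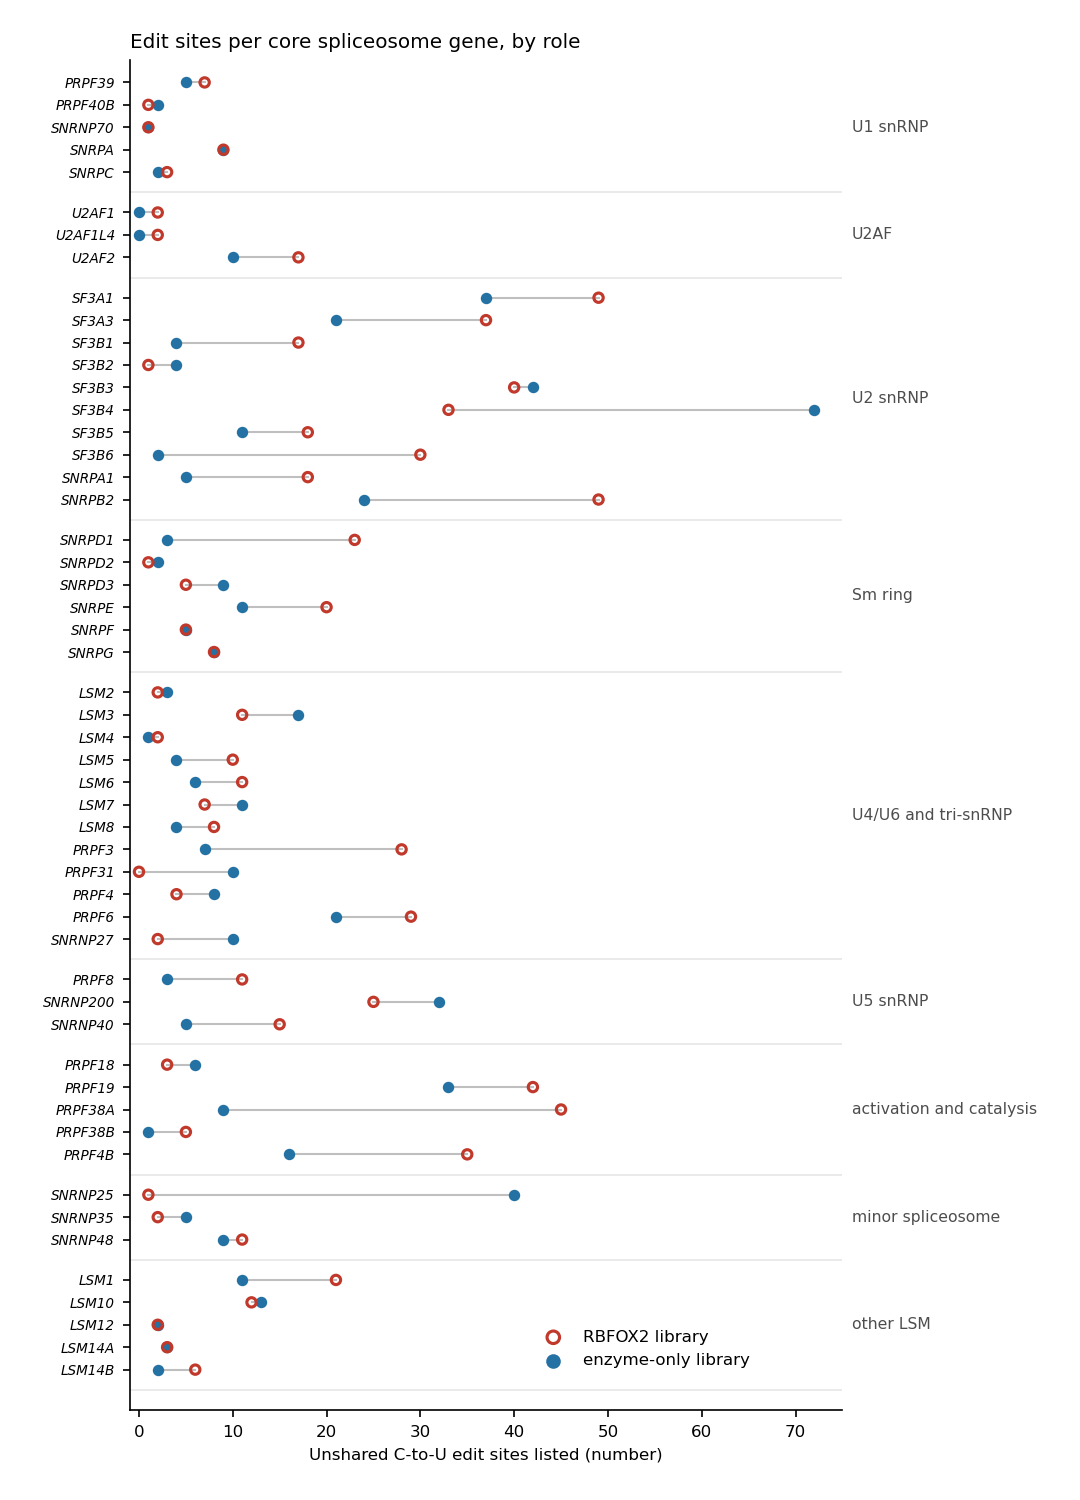
Number of unshared C-to-U edit sites (x axis) listed for each of 52 genes, in rows grouped by role, in the RBFOX2 library (open red) and the enzyme-only library (filled blue), 1 library each. SF3B6 (30 against 2), SNRPD1 (23 against 3) and PRPF38A (45 against 9) reach to the right in the RBFOX2 library, and SF3B4 (33 against 72) and SNRNP25 (1 against 40) in the enzyme-only library.

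SF3B6 had the highest ratio of the members with at least 20 sites. The gene (chr2:24066653-24076391, minus strand) encodes the subunit of SF3B that lies next to the branch point adenosine. It had 594 reads in the RBFOX2 library, against 616 in the enzyme-only library, and in both a site needed 2 converted reads to be listed. There were 30 unshared sites in the RBFOX2 library, against 2 in the enzyme-only library, a log2 ratio of 3.35 (1.66 to 6.75), scaled by the total number of sites of each library. The 30 RBFOX2 sites comprised 18 in coding sequence, 10 in the 3′UTR and 2 in the 5′UTR, and 28 of them had A or U directly 5′, the context that APOBEC1 prefers. The enzyme-only sites carried 2 converted reads each, in codons 113 and 102.

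Within SF3B6 the densest group of sites lay in exon 3 of 4, a 139-nt exon (chr2:24068321-24068459) that holds UGCAUG at chr2:24068388-24068393 in all 6 isoforms. This exon had 11 unshared RBFOX2 sites, with 44 converted reads together, and no unshared enzyme-only site. Of these, 9 sites (39 converted reads) fell no more than 50 nt from the motif, a stretch in which the exon has 17 cytosines. The most edited cytosines, 7 and 12 nt 3′ of the motif, had 8 converted reads each, an edit fraction of 1.35% (0.583 to 2.64). The first of them would leave codon 76 synonymous (H76H) and the other would change codon 78 (S78L), counted on the canonical transcript. Next to them, cytosines 5, 8 and 19 nt from the motif had 3, 4 and 3 converted reads. Farther 3′, cytosines at 37 and 38 nt had 3 and 4, and on the 5′ side those at 40 and 49 nt had 3 each. The shared site of this exon, 31 nt 3′ of the motif, had 6 converted reads of 594 (1.01%, 0.372 to 2.19) in the RBFOX2 library and 2 of 616 (0.325%, 0.0393 to 1.17) in the enzyme-only library. The intervals overlapped. A separate group of 10 unshared sites lay in the 3′UTR, over 200 nt from the nearest UGCAUG, and its highest value was 5 converted reads. Another 5 lay in coding sequence of codons 46 to 19, with 2 to 4 converted reads each.

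**Figure D2:**
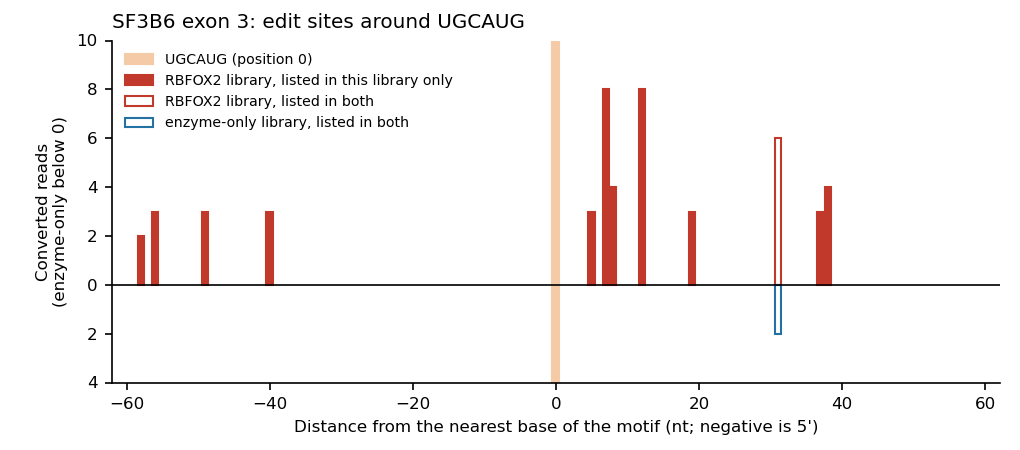
Converted reads (y axis) of the listed edit sites of SF3B6 exon 3 against their distance in nt from UGCAUG (x axis, transcript direction), with the RBFOX2 library above 0 and the enzyme-only library below. Filled bars are sites listed only in that library and open bars the site listed in both. The 2 highest bars, 8 converted reads each, stand 7 and 12 nt 3′ of the motif, and the enzyme-only library has a single bar of 2 converted reads.

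Across the members, 25 had at least 20 unshared sites over both libraries. A gene was called where its scaled log2 ratio passed 1 in either direction (2-fold), with no test. More than 2-fold higher in the RBFOX2 library were 8 of the 25, where 16.7% of 3570 genes were called in that direction. More than 2-fold lower were 2, where the background was 14.5%. The median log2 ratio was 0.54 over the 25 members and 0.08 over all genes. This number also split by depth. Among members with at least 500 reads in both libraries, 6 of 7 were called higher, against 40.3% of 236 genes of that depth, and 0 lower, against 7.63%. No member of that depth had more than 10 enzyme-only sites, so a member reached 20 sites mainly through the RBFOX2 library. The count of 6 of 7 is therefore partly set by the minimum of sites. Without that minimum, 64.7% of the 17 members of that depth had more RBFOX2 sites, against 63.2% of other genes. Among those with fewer reads, 2 of 17 were called higher, against 15.5%, and 1 lower, against 11.8%. Of the 8 genes, 5 reached the minimum of 20 sites through the RBFOX2 library alone (among them SF3B6, SNRPD1, PRPF38A and PRPF3). Of the 2 called lower, SF3B4 reached it in either library and SNRNP25 through the enzyme-only library alone. Neither call held in every setting. SNRNP25 had 1 site in each library under the common read minimum, and SF3B4 was within 2-fold when scaled by gene reads.

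**Figure D3:**
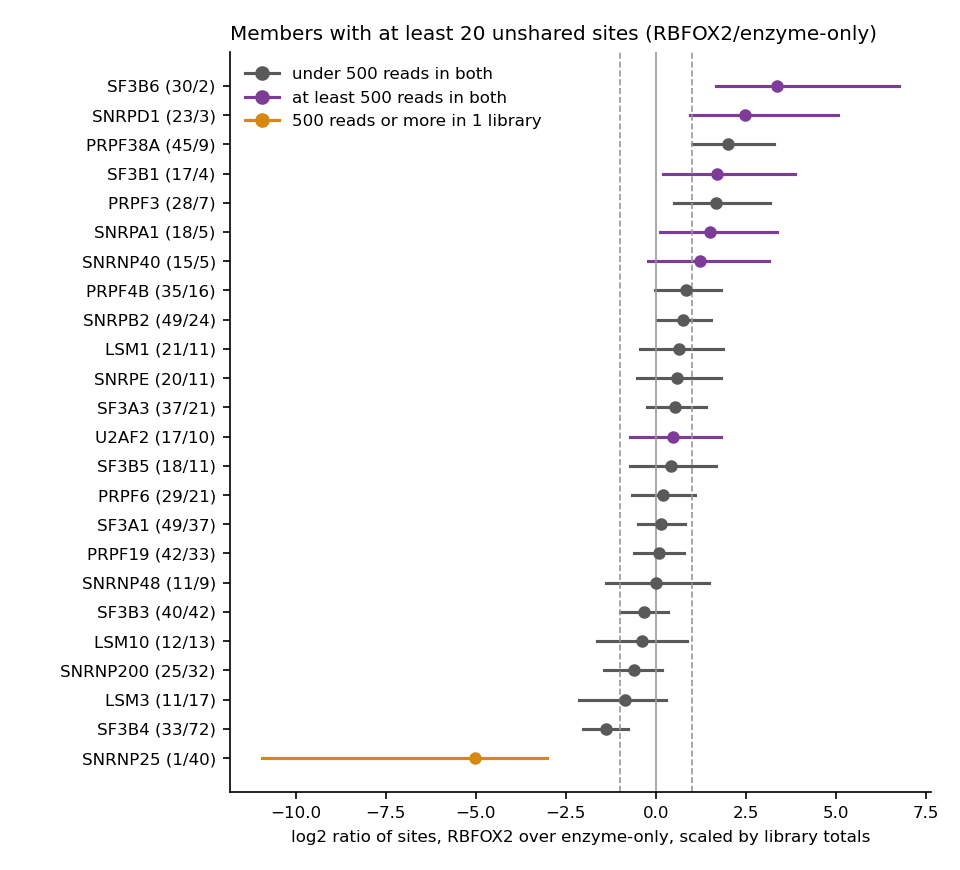
Log2 ratio of unshared sites, RBFOX2 over enzyme-only and scaled by library totals (x axis), for 24 members with at least 20 sites, with site numbers in parentheses and colours for the reads of the gene. Points are single ratios with 1 library per group, lines are 95% intervals of counting error, and dashed lines mark the 2-fold limits. Of the 7 plotted genes beyond the right limit, 5 have at least 500 reads in both libraries, and SNRNP40 is the one whose interval includes 0.

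The U2 particle held the most sites, 292 in the RBFOX2 library, against 222 in the enzyme-only library over 10 genes, a log2 ratio of 0.13 (-0.12 to 0.39). Its members went in different directions. SF3B1, the largest SF3B subunit and a gene often mutated in myelodysplastic syndromes, had 637 and 664 reads with 17 and 4 sites, a log2 ratio of 1.70 (0.21 to 3.85). All 4 enzyme-only sites lay in coding sequence, and the RBFOX2 sites comprised 10 in coding sequence and 7 in the 3′UTR. SNRPA1, a protein bound to U2 snRNA, had 893 and 775 reads with 18 and 5 sites, a log2 ratio of 1.49 (0.10 to 3.37). SNRPB2, its partner on U2 snRNA, had 353 and 322 reads with 49 and 24 sites, a log2 ratio of 0.75 (0.03 to 1.54), and it also held the most shared sites, 13. With 11 sites of at least 2 converted reads against 2, SNRPB2 was listed under the same minimum of 1 converted read in both libraries.

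SF3B4, an RNA-binding subunit that contacts the pre-mRNA near the branch point, went the other way. It had 307 reads and 33 sites in the RBFOX2 library, against 384 reads and 72 sites in the enzyme-only library, a log2 ratio of -1.38 (-2.03 to -0.78). A single converted read was enough to be listed in both. Per 1000 reads this was 107 and 188 sites. Scaled by gene reads, the log2 ratio was -0.79, within the 2-fold limit. Coding sequence held 30 of the 33 and 59 of the 72. The remaining U2 members with at least 10 sites were closer to even. SF3A1 had 49 and 37 sites with 335 and 299 reads, SF3A3 had 37 and 21 with 380 and 312 reads, and both are subunits of the SF3A complex. SF3B3 had 40 and 42 sites with 377 and 378 reads. SF3B5 had 18 and 11 with 408 and 397 reads. For these 4 genes the interval of the log2 ratio included 0.

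For the U1 particle there were 41 RBFOX2 and 25 enzyme-only sites in 6 genes, a log2 ratio of 0.44 (-0.30 to 1.23). SNRPA, a U1 protein that binds a stem-loop of U1 snRNA, had 9 sites in each library at 550 and 572 reads. PRPF39, a U1-associated protein, had 7 and 5 sites at 113 and 116 reads. SNRNP70, another protein of the U1 particle, had 3066 and 2959 reads, so that 7 and 6 converted reads were needed, and 1 site in each. The RBFOX2 site had 9 converted reads (0.294%) in the 5′UTR, and the enzyme-only site had 6 (0.203%) in coding sequence, at codon change H92Y.

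U2AF genes had 21 RBFOX2 and 10 enzyme-only sites. U2AF2, which binds the polypyrimidine tract, had 618 and 533 reads with 17 and 10 sites, a log2 ratio of 0.47 (-0.71 to 1.79). Its most converted unshared site, in the 3′UTR, had 5 converted reads in the RBFOX2 library, and a shared 3′UTR site reached 6 in the enzyme-only library. U2AF1, which recognizes the AG at the 3′ splice site, had 2876 and 2141 reads, so that 6 and 5 converted reads were needed. It had 2 unshared sites, both synonymous and both in the RBFOX2 library, with 12 (0.417%, 0.216 to 0.728) and 6 converted reads. A shared site in codon 107 had 7 of 2876 and 6 of 2141 converted reads, 0.243% and 0.280%. U2AF1L4 was absent from the enzyme-only table and had 14 reads and 2 sites in the RBFOX2 library.

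In the Sm ring there were 62 and 38 sites in 6 genes. SNRPD1 had 642 and 569 reads with 23 and 3 sites, a log2 ratio of 2.48 (0.95 to 5.05). No UGCAUG lay within 50 nt of any exonic cytosine of this gene, and all 23 RBFOX2 sites had A or U directly 5′. SNRPE had 20 and 11 sites at 396 and 452 reads, and SNRPG had 8 in each library at 302 and 304 reads. SNRPF had 5 and 5 at 275 and 270 reads. SNRPD3 had 849 and 855 reads with 5 sites in the RBFOX2 library, against 9 in the enzyme-only library, a log2 ratio of -1.05 (-3.04 to 0.62). Its fewer than 20 sites left it out of the calls.

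For U4/U6 and the tri-snRNP, 114 sites stood against 102 in 12 genes, a log2 ratio of -0.10 (-0.50 to 0.30). PRPF3, a U4/U6 protein, had 183 and 144 reads with 28 and 7 sites, a log2 ratio of 1.66 (0.51 to 3.18), and 5 of its RBFOX2 sites had at least 2 converted reads, against 0. PRPF31, another U4/U6 protein and a retinitis pigmentosa gene, had 378 and 299 reads and stood at 0 and 10 unshared sites, beside 2 shared ones. The upper bound of its log2 ratio was -1.43. SNRNP27, a tri-snRNP protein, had 2 and 10 sites at 369 and 348 reads, a log2 ratio of -2.33 (-5.82 to -0.35). PRPF6, which bridges U5 and U4/U6, had 29 and 21 sites at 263 and 250 reads, and PRPF4, a partner of PRPF3, had 4 and 8 at 145 and 143 reads. Members of the LSM ring on U6 were not uniform. LSM3 had 11 and 17 sites at 323 and 362 reads, and LSM7 had 7 and 11 at 240 and 218. LSM5 had 10 and 4 at 186 and 176 reads, LSM6 had 11 and 6 at 142 and 154, and LSM8 had 8 and 4 at 45 and 63. LSM4, the member with the most reads (3836 and 3015), had 2 sites and 1. Its highest, in the 3′UTR, had 16 converted reads, a fraction of 0.417% (0.239 to 0.676), and the enzyme-only site had 8 (0.265%).

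U5 genes had 51 and 40 sites, a log2 ratio of 0.08 (-0.54 to 0.72). PRPF8, the protein at the catalytic core, had 116 and 118 reads with 11 and 3 sites, a log2 ratio of 1.45 (-0.31 to 4.09). SNRNP40 had 853 and 691 reads with 15 and 5 sites, a log2 ratio of 1.23 (-0.21 to 3.14), and a 3′UTR site of 6 converted reads (0.703%). SNRNP200, the helicase that unwinds U4/U6, had 25 and 32 sites at 303 and 294 reads. Among genes of activation and catalysis, 130 sites stood against 65, a log2 ratio of 0.73 (0.30 to 1.19). PRPF38A, which is needed for spliceosome activation, gave the largest part, with 45 sites against 9 and a log2 ratio of 2.00 (1.01 to 3.28). Its reads also differed, 349 against 239, and per 1000 reads it had 129 and 37.7 sites. Its RBFOX2 sites were spread over 22 coding and 23 3′UTR positions, and 9 of them had at least 2 converted reads, against 0. PRPF4B, a kinase, had 35 and 16 sites at 346 and 325 reads. PRPF19, a ubiquitin ligase, had 42 and 33 at 383 and 355 reads.

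Genes of the minor spliceosome, which removes a rare class of introns, held 14 and 54 sites, and nearly all of the difference came from SNRNP25. This gene had 505 reads in the RBFOX2 library, where 2 converted reads were needed, and 444 in the enzyme-only library, where 1 was enough. It had 1 and 40 sites, and under the common read minimum 1 and 1. The 3 genes of the group then had 14 and 15. SNRNP48 had 11 and 9 sites at 198 and 189 reads. Among other LSM proteins, LSM1, part of the cytoplasmic ring of mRNA decay, had 21 and 11 sites at 341 and 271 reads. LSM10, of the U7 particle that processes histone mRNA, had 12 and 13 at 314 and 256 reads. The 15 members with fewer than 10 sites held 1 to 6 in the RBFOX2 library and 0 to 6 in the enzyme-only library.

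Other genes of the spliceosome, a list of 59, were counted in the same way. Of these, 56 had a site, with 828 in the RBFOX2 library, against 780 in the enzyme-only library. Among the 31 with at least 20 sites, 1 was called higher and 3 lower, against 16.7% and 14.5% of all genes. The median log2 ratio was -0.13, against 0.08 over all genes. The calls of this list were not split by depth, so a difference from the members was not tested. PPIE, a cyclophilin of the spliceosome, had 39 and 11 sites at 408 and 296 reads. BCAS2 had 6 and 29, CD2BP2 had 2 and 25, and PHF5A had 2 and 33, and each of these 3 had over 500 reads in the RBFOX2 library and fewer in the other. With the common read minimum they had 6 and 5, 2 and 2, and 2 and 1. PPIE then was called higher, and SMU1 and USP39 were called lower. In the members, the common minimum left 8 called higher of 24, against a background of 15.8%, and 1 called lower (SF3B4), against 12.8%. The 8 were the same genes as before.

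The share of sites near UGCAUG was measured next. It was set against the share of exonic cytosines in the gene of each site that lie within 50 nt of the motif. This is the value expected if every exonic cytosine of a gene were equally likely to be edited. It takes no account of the base 5′ of the cytosine. For the members, 28 of 768 exonic RBFOX2 sites were within 50 nt of UGCAUG, 3.65% (2.44 to 5.23), where 1.88% was expected, a ratio of 1.94 (1.30 to 2.78). With enzyme alone, 6 of 587 sites were near the motif, 1.02% (0.376 to 2.21), where 1.90% was expected, a ratio of 0.537 (0.198 to 1.16). The 2 intervals of the share did not overlap. Over other genes the ratios were 1.53 (1.48 to 1.57) and 0.953 (0.912 to 0.996), so the interval of the members in the RBFOX2 library included the value of other genes. SF3B6 accounted for 9 of the 28. Without it the RBFOX2 ratio was 1.84 (1.11 to 2.86), from 19 of 738 sites, and the enzyme-only ratio 0.551 (0.203 to 1.19). The shares without SF3B6 were 2.57% (1.56 to 3.99) and 1.03% (0.377 to 2.22), and those intervals overlapped. Among sites with at least 2 converted reads, SF3B6 mattered more, since it held 9 of 12. The ratio was 1.76 (0.920 to 3.02) with it and 1.11 (0.230 to 3.20) without it, against 2.42 (2.28 to 2.57) in other genes.

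Exons of the member loci held UGCAUG 34 times in 20 genes, 13 of them in coding sequence. An unshared RBFOX2 site lay within 50 nt of 11 of the 34, in 9 genes, and an unshared enzyme-only site near 3, in 3 genes. The other 23 had neither. PRPF4B, with 3 UTR or noncoding copies, had 4 RBFOX2 and 2 enzyme-only sites near them, and SNRNP200, with 5 coding copies, had 4 and 1. LSM5 had 3 RBFOX2 sites near a single copy. All of these had 1 converted read each. LSM14B, SF3B3 and SNRNP27 had 1 RBFOX2 site of 1 converted read each. In PRPF6, SF3A1 and SNRNP40, the 3 remaining RBFOX2 sites were near a motif outside the isoform exons, as were the enzyme-only sites of PRPF6 and SF3A1.

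Besides SF3B6, SNRPD3 and SNRNP40 had a site of at least 2 converted reads near the motif in the RBFOX2 library. The SNRPD3 site, directly 5′ of the motif, had 3 of 849 (0.353%, 0.0729 to 1.03) and would be synonymous. The enzyme-only library had a different SNRPD3 site with 3 of 855 converted reads, 37 nt 5′ of the same motif. SNRNP40 had 2 converted reads of 853 at 18 nt 5′ of a motif. With 2 or 3 converted reads, no difference between the libraries was detectable at these positions.

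Positions with at least 5 converted reads away from the motif went in both directions. Such a position was chosen because a library had at least 5 converted reads. The gap between the libraries at a shared site is therefore partly set by this choice. Among the shared sites, a coding position of SNRPB2 (T116I) had 7 of 353 converted reads with the RBFOX2 antibody (1.98%, 0.801 to 4.04) and 1 of 322 with enzyme alone (0.311%). A 3′UTR position of SNRNP40 had 7 of 853 and 2 of 691, a 3′UTR position of SNRPA1 had 5 of 893 and 2 of 775, and a synonymous position of SF3B1 had 6 of 637 and 4 of 664. The opposite order was seen at a coding position of SNRPA1 (T40M), with 2 of 893 and 6 of 775. It was also seen in the 3′UTRs of SF3B4, with 2 of 307 and 5 of 384, and U2AF2, with 3 of 618 and 6 of 533. Among unshared sites, SNRPA1 had a coding position with 5 converted reads (T116I) and LSM4 another 3′UTR position with 8 (0.209%), both in the RBFOX2 library.

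**Figure D4:**
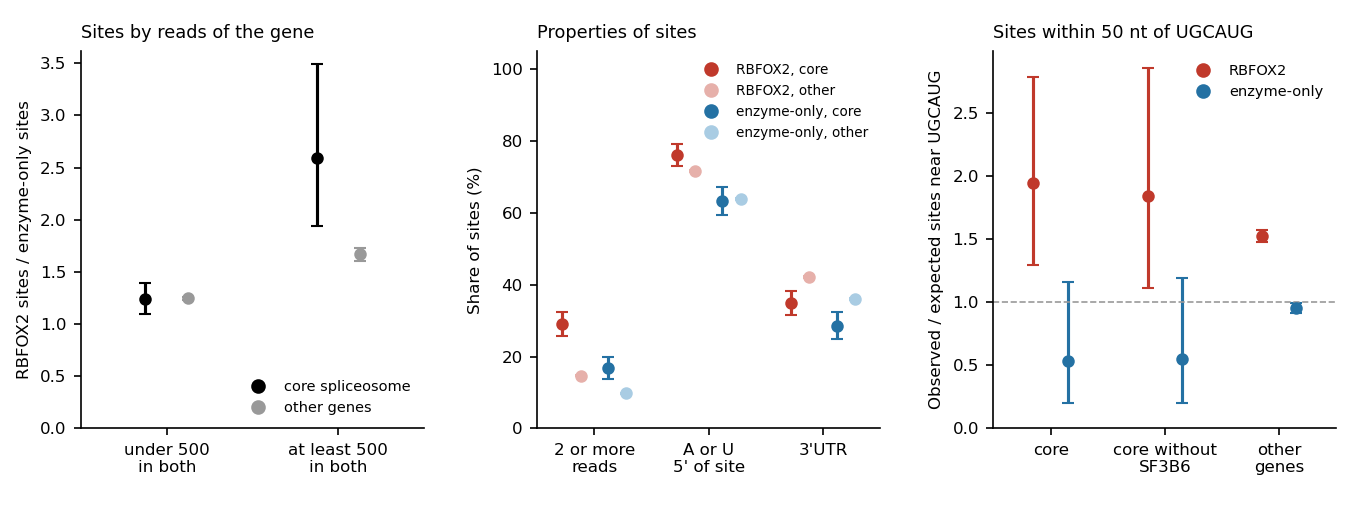
Left, ratio of RBFOX2 to enzyme-only unshared sites by reads of the gene, for the core spliceosome genes (black) and other genes (grey). Centre, share of sites (%) that had 2 or more converted reads, A or U directly 5′ or a place in the 3′UTR, in the RBFOX2 (red) and enzyme-only (blue) libraries, with other genes in pale colours. Right, observed over expected sites within 50 nt of UGCAUG, with a dashed line at 1. Lines are 95% intervals of counting error. The core ratio at 500 reads or more is 2.59 against 1.67 in other genes, and the RBFOX2 motif ratio is 1.94 with SF3B6 and 1.84 without.

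Converted reads per site also differed. Among member sites, 2 or more converted reads were present at 29.0% (25.8 to 32.3) with the RBFOX2 antibody and 16.7% (13.8 to 19.96) with enzyme alone. In other genes these shares were 14.7% and 9.73%. In the members with at most 500 reads in both libraries, where a site of 1 converted read could be listed, they were 8.57% and 6.44%. A or U stood directly 5′ of 76.1% (72.9 to 79.0) of member sites with the RBFOX2 antibody, against 63.4% (59.3 to 67.3) with enzyme alone, where exonic cytosines of the member loci had 45.7%. Other genes had 71.6% and 63.8%. Among sites with at least 2 converted reads, the members had 87.9% (82.9 to 91.9) and 79.6% (70.3 to 87.1), and these intervals overlapped.

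Most member sites lay in coding sequence, 58.9% (55.3 to 62.4) with the RBFOX2 antibody, 63.5% (59.5 to 67.4) with enzyme alone, against 50.1% and 54.7% in other genes. The 3′UTR held 34.9% (31.5 to 38.3) and 28.4% (24.8 to 32.3), against 42.1% and 35.9% in other genes. The members thus had a lower 3′UTR share than other genes in both libraries, while the intervals of the 2 libraries overlapped. The list of other spliceosome genes had similar 3′UTR shares, 32.4% and 31.2%, so this was not particular to the members. Of 451 RBFOX2 sites with a coding consequence, 25 would create a stop codon (5.54%, 3.62 to 8.07), 223 would change an amino acid and 203 would be synonymous. Of 369 enzyme-only sites, the numbers were 25 (6.78%, 4.43 to 9.84), 192 and 152. At least 2 converted reads were found at 6 of the 25 RBFOX2 stop sites and at none of the enzyme-only stop sites. Over all member sites the shares were 29.0% and 16.7%. Those in PRPF38B, SF3B1, SNRPC and SNRPD1 lay in genes of over 500 reads, where a site of 1 converted read is not listed. All enzyme-only stop sites lay in genes of fewer than 500 reads. The stop site with the most converted reads had 4 of 644 (0.621%), in PRPF38B at codon 205.

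The editsC of an isoform, the share of its exonic cytosines that were listed as edited, was compared last. Over 814 isoforms of the 53 genes with an unshared site, median editsC was 3.17% with the RBFOX2 antibody and 1.55% with enzyme alone, with 564 isoforms (69.3%) higher in the former and 181 lower. Over 105156 isoforms of other genes the medians were 2.11% and 1.71%, with 56.7% higher. Isoforms of a gene share most of their sites, and reads were given per gene, so they are not independent. Genes with many isoforms also weigh more in these counts. With 1 isoform for each gene, the RBFOX2 median was 1.78%, against 1.22% with enzyme alone. This was not computed for other genes. SF3B6 had the widest gap, its 6 isoforms ranging from 10.8% to 32.9% with the RBFOX2 antibody and from 0.717% to 2.94% with enzyme alone, with no overlap. SNRPB2 had the highest median in the RBFOX2 library, 23.5% over 17 isoforms, against 10.6%. All 29 isoforms of PRPF38A and all 13 of PRPF3 were higher in the RBFOX2 library, and SNRPD1 was higher in 16 of 17. All 7 isoforms of SF3B4 and all 10 of SNRNP25 were lower. A site of SNRNP25 needed 2 converted reads with the RBFOX2 antibody and 1 with enzyme alone. Under the common read minimum this gene had 1 site in each library.

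**Figure D5:**
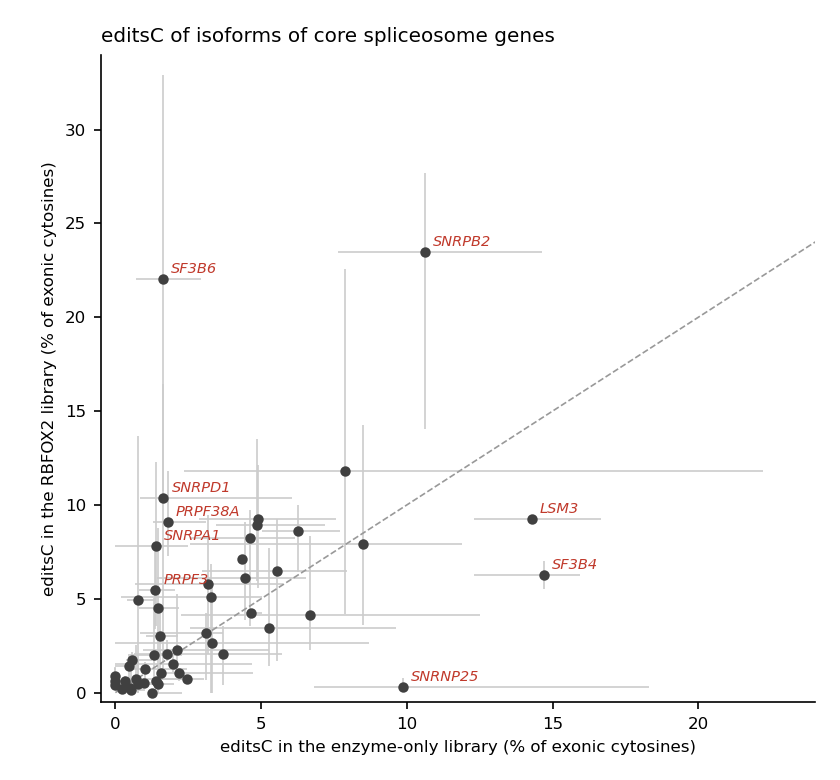
editsC, the percentage of exonic cytosines listed as edited, of the isoforms of 52 genes in the RBFOX2 library (y axis) against the enzyme-only library (x axis). Points are medians over the isoforms of a gene, lines their ranges, and the dashed line marks equal values. SF3B6 (22.0% against 1.62%) lies far above the line, and SNRNP25 (0.277% against 9.87%) far below it. The 2 libraries had different read minimums for SNRNP25, which had 1 site in each under the common read minimum.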

How the data were processed

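PacBio edit tables of 2 libraries were used, 1 for each group, assigned by the descriptions in the labels. Per the labels, the genome build was hg38 and an Iso-Seq kit was used. The methods of the study describe another kit (Kinnex), alignment with pbmm2, IsoQuant and replicates not analysed here, so the tables may come from another run. The deposited tables give for every site the converted reads and the reads of the whole gene as counts, their quotient as the authors' edit fraction, and a confidence score by the authors that was not used. A deposited table of isoform models gave exon positions.

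Symbols, regions and codons came from GENCODE 44. All 225811 listed positions were cytosines of hg38. Where annotations overlapped, coding sequence took precedence over 3′UTR, then 5′UTR, noncoding exon and intron. Exons of more than 1 protein-coding gene were overlapped by 4 member loci (SNRNP27, SNRPA1, SNRPD3 and U2AF1L4). Unshared sites numbered 109357 (RBFOX2) and 91111 (enzyme-only). The study's removal of annotated variants was not repeated. The log2 ratio used a pseudocount of 0.5 and these totals. Depth was the reads of a gene, and depth at a position is unknown. Molecular identifiers are not part of the tables. Named members had at least 10 unshared sites, were absent from a table or passed 2-fold, and some others are given to complete a group. The values of 1 member are in the totals and are not reported here on their own. Named positions had at least 5 converted reads, or at least 2 within 50 nt of UGCAUG. The members, lists and role groups were chosen with earlier results of these data known. No p-value was computed, since each group had 1 library. Calculations used pandas 2.3.3, scipy 1.17.1 and bedtools 2.31.1 and were tested on simulated data. Alternatives were other read minimums, windows, pseudocounts, filters and annotation rules, and, chosen after seeing the data, results without SF3B6.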

Additional observations from a re-analysis of the deposited data

How the results depend on the processing

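No paired analysis was possible because each group had 1 library and the 2 libraries carry different replicate numbers. Of 76 recomputed values of the main results, 58 stayed within their limits (counts within 1.5 times, shares within their interval). With at least 2 converted reads, the members had 223 and 98 sites, 3 of 7 genes called higher and 0 lower (27.0% and 13.3% over all genes), A or U 5′ of 87.9% and 79.6% of sites, and a 3′UTR share of 39.0% in the RBFOX2 library. Scaled by gene reads, 10 of 25 members were called higher and 1 lower, against 19.8% and 11.8% of all genes. With the common read minimum, 8 of 24 were called higher and 1 lower (15.8% and 12.8% of all genes). With at least 10 sites, 9 of 38 were called higher and 6 lower (19.0% and 16.8%), and with at least 50 sites 1 and 1 of 10 (11.6% and 10.5%). In members with at most 500 reads, the shares with at least 2 converted reads were 8.57% and 6.44%. Counting 3′UTR before coding sequence gave 44.2% and 38.2%. A 200-nt window gave motif ratios of 1.16 for RBFOX2 and 1.08 for enzyme alone, where the 50-nt value was 0.537 with an interval that included 1. With 1 isoform per gene the median editsC was 1.78% against 1.22%. The causes were not tested. Without SF3B6, the numbers of sites and calls, the share with at least 2 converted reads and the motif ratio stayed within their limits. Leaving out 1 gene could hardly move the counts past 1.5 times. The other main results were not recomputed without it. Of 216 values for 38 genes with at least 10 sites, 204 stayed within the interval. Apart from SNRNP25 under the common read minimum, those that moved did so with at least 2 converted reads, where few sites were left. There the log2 ratio went from 0.64 to -1.60 in LSM1 and from 0.84 to -0.86 in PRPF4B. It went from 0.14 to -2.45 in SF3A1, and up from 0.54 to 1.95 in SF3A3. The log2 ratio of SNRNP25 was -0.35 under the common read minimum, against -5.02. Sites of 1 converted read can hold sequencing errors, and 1 library per group leaves the spread between samples unmeasured.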

Other observations

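Among symbols that the rule named but gave no locus, SF3A2 and SNRPB lay inside loci assigned to a neighbouring gene. SF3A2 held 4 unshared RBFOX2 sites and 56 unshared enzyme-only sites, in a locus of 503 and 498 reads assigned to AMH. That locus lies on either side of the 500 reads at which a site of 1 converted read stops being listed. SNRPB held 2 and 1, in a locus of 3577 and 3274 reads assigned to ZNF343. Neither gene entered a comparison.

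The SRSF genes, splicing regulators outside the core, had 109 RBFOX2 and 67 enzyme-only sites in 9 genes, and 2 of them had at least 20 sites. With the common read minimum the numbers were 109 and 40, and SRSF2 was called higher.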
